A study of Homo sapiens with 3 samples.

Results

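The DNA replication genes described here were 40 genes, listed by symbol, out of the 33538 genes listed in the count matrices of an in vitro intestinal epithelium. All 40 symbols were found, each in 1 row. They were grouped by role into 10 genes of origin licensing, 8 of helicase activation and fork protection, 5 of the polymerases, primase and RPA, 5 of the sliding clamp and its loader, 2 of flap removal and ligation, 4 of deoxynucleotide synthesis, and 6 that act beside the fork.

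A cell copies its genome once per division, in S phase. In the G1 phase before it, the origin recognition complex, CDC6 and CDT1 load the MCM helicase onto DNA, and on entry into S phase kinases recruit CDC45 and the GINS complex, which switch the helicase on. Primase, polymerases and the PCNA clamp then copy both strands while ribonucleotide reductase and thymidylate synthase supply the nucleotides, and many of these genes are switched on together by E2F transcription factors. In the gut, such transcripts mark dividing stem and transit-amplifying cells and are low in mature enterocytes.

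The model was a mixture of Caco-2 and HT29 cells, human colorectal cancer lines that differentiate towards enterocytes and towards mucus-secreting cells, respectively. They were seeded at 9 parts Caco-2 (passage 8) to 1 part HT29 (passage 13) on Transwells, permeable inserts on which the cells form a barrier, and were profiled by droplet single-cell RNA sequencing on day 23. The control group was 2 Transwells left untreated. The LPS group was 1 Transwell that received 1 ng/ml lipopolysaccharide, a cell wall component of Gram-negative bacteria, on its apical side from day 22 for 24 h. No stromal or immune cells were added, each line is a single established cancer line, and with 1 LPS library the treatment cannot be told apart from that Transwell and its library.

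The libraries held 24185467 to 33893707 UMIs (unique molecular identifiers, 1 per captured transcript) in 5811 to 6838 barcodes, and 4633 to 4989 cells per library were kept. The median depth per kept cell was 5459 UMIs in control 1, 4103 in control 2 and 3573.5 in the LPS library, so levels are given as CPM, the UMIs of a gene in the summed cells scaled to a common total. Cells were assigned to the Caco-2 line (3943, 3951 and 3957 cells) or the HT29 line (644, 956 and 802 cells) from the study's signature lists of both lines. The 40 members and lists of other replication, mitosis, fork repair and replication-dependent histone genes were first left out of them. Cell cycle genes outside these lists were not left out. The apolipoprotein APOA4 was at 1198 to 1543 CPM in Caco-2-line cells and 53.1 to 77.6 in HT29-line cells, and lipocalin LCN2 was at 1.92 to 3.47 and 176 to 237 CPM. Such line markers were not withheld from the signature lists, so these levels are no independent check of the assignment. The immune gene PTPRC did not exceed 0.305 CPM in either line. At most 11 barcodes were shared by any pair of libraries, and no shared barcode had identical counts.

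To show what the genes share in sequence, the promoters of the members were taken from RefSeq (GRCh38.p14), each from 250 bases before to 50 bases after a transcription start. Of the 40 members, 36 matched an entry; MCM4, MCM5, GINS4 and RPA2 did not. An E2F-type motif, searched on both strands as TTTCCCGC, TTTGGCGC, TTTGCCGC or TTTCGCGC, was present in 19 of the 36 (52.8%) and in 3.33% of all 27305 promoters of that length, or 4.44% of the 15843 promoters of protein-coding genes. These spellings overlap on opposite strands, as in TTTGGCGCGAAA. A CCAAT box was present in 63.9% of the members and 35.7% of all promoters, whereas TTTGAA, part of the CHR element of mitotic genes, was present in 2.78% of the members (RRM1) and 15.4% of all promoters. The shares describe letters in a window and not occupied sites. In the following 60-base windows upstream of the start, read 5′ to 3′ on the strand of the gene, capitals mark the E2F-type motif. They are shown as examples of members described further on that hold the motif: CDT1 (chr16:88803729-88803788, plus strand), MCM6 (chr2:135876556-135876615, minus), GINS2 (chr16:85688955-85689014, minus), PCNA (chr20:5126642-5126701, minus), TYMS (chr18:657593-657652, plus) and E2F1 (chr20:33686386-33686445, minus).
CDT1: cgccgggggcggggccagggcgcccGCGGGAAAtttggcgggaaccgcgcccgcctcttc
MCM6: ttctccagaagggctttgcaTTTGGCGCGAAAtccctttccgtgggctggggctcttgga
GINS2: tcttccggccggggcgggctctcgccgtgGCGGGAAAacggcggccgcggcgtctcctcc
PCNA: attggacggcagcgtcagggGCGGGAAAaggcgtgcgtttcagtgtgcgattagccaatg
TYMS: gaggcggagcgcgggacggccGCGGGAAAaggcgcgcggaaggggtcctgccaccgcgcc
E2F1: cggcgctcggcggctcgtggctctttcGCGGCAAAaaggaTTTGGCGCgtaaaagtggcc
The first matched letter lay 35 bases before the start in CDT1, 31 in GINS2, 59 in PCNA and 39 in TYMS. MCM6 held 4 matches, the first at 152 bases, and E2F1 itself, which encodes the activator, held 2, at 33 and 20 bases. The 17 members with no match included MCM10, CDC45, RRM1, RRM2, UNG, SLBP and POLD1.

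The 40 genes were transcribed in every library at similar summed levels: 836 CPM in control 1, 784 in control 2 and 848 in the LPS library. The levels of single members ran from GINS3, a GINS subunit, at 1.77, 1.60 and 2.94 CPM, to TYMS, which makes thymidylate, at 80.1, 67.9 and 70.0 CPM. Origin licensing genes summed to 258, 252 and 281 CPM, and deoxynucleotide genes to 164, 151 and 159 CPM.

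**Figure D1:**
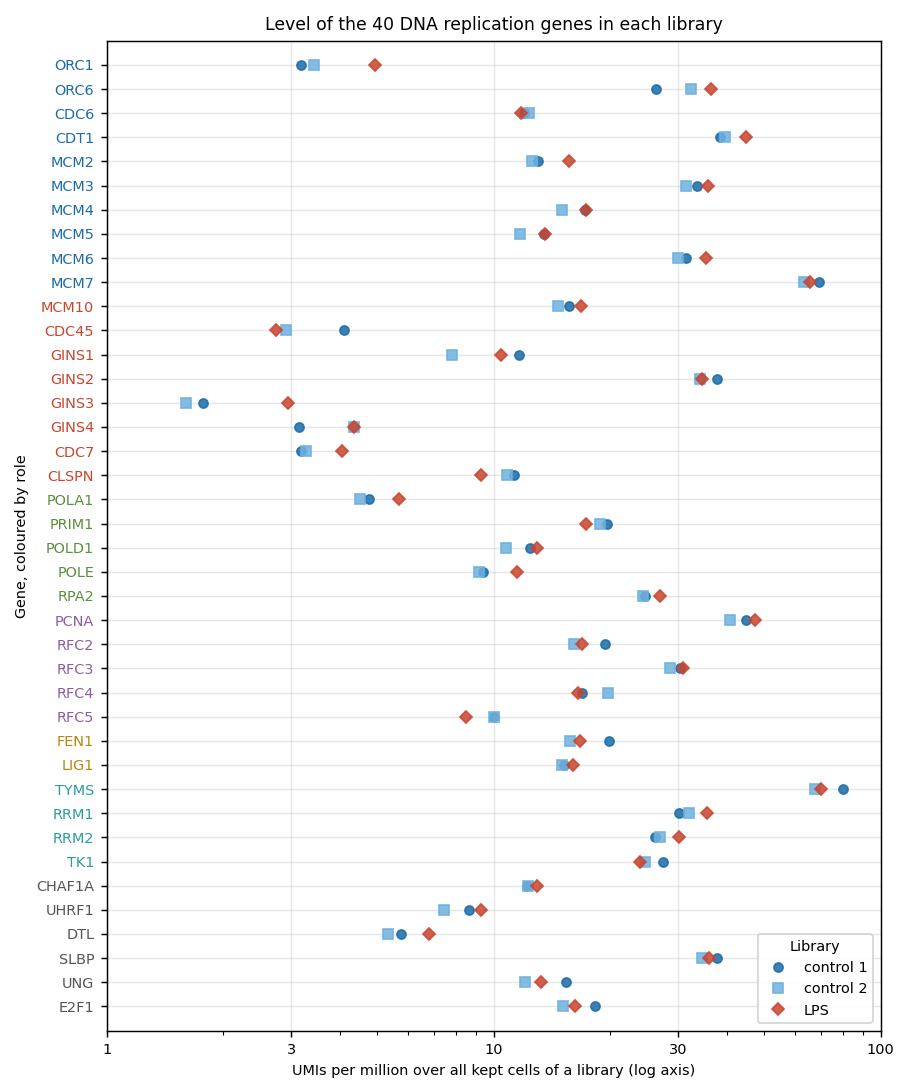
Level of each of the 40 genes, in CPM over all kept cells on a log axis, with 1 point per library (2 controls and 1 LPS); gene names are coloured by role. The genes run from GINS3 at 1.60 to 2.94 CPM up to TYMS at 67.9 to 80.1 CPM.

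The transcripts were not spread evenly over cells. Because deeper cells show more UMIs, each cell was thinned at random to the minimum depth kept in control 1, which left out 0, 456 and 753 cells. Of the thinned cells, 43.0%, 40.7% and 37.8% (control 1, control 2, LPS) held no UMI of any of the 40 genes, whereas 11.1% (95% exact binomial interval 10.2 to 12.1), 9.66% (8.82 to 10.6) and 11.9% (10.96 to 12.97) held 5 or more. Such intervals cover counting error only. The 20% of cells with most of these UMIs held 69.2%, 66.4% and 65.0% of them, and the variance over cells was 3.27 to 3.79 times the mean, where evenly expressed genes would give a ratio near 1.

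Grouping the cells by genes other than the members and the mitosis, other replication, fork repair and histone lists gave 12 clusters. The summed level of the 40 genes was highest in cluster 1, at 1631, 1504 and 1651 CPM. Its leading genes included UBE2C and TOP2A, of mitosis and chromosome untangling, so it held dividing cells. The genes of those lists did not enter the clustering, but cell cycle genes outside them could. Among these, the kinetochore gene SPC25 was a leading gene of cluster 1, so the level in cluster 1 is not independent of the grouping. In stem-like cells, led by OLFML3, PLA2G2A and SMOC2, the level was 822, 799.6 and 906 CPM, and in enterocyte-like cells, whose leading genes included APOA4 and FABP2, it was 292, 255 and 319.7 CPM. Undifferentiated HT29-like cells, led by LCN2 and ANXA1 among others, had 367, 295 and 339.5 CPM. Cluster 1 exceeded the enterocyte-like cells 5.17- to 5.89-fold and the stem-like cells 1.82- to 1.98-fold in every library. The ratio to enterocyte-like cells was 8.98 to 11.1 for helicase activation genes and 2.72 to 3.21 for the polymerases, primase and RPA. Clusters were not tested against each other.

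Smaller clusters varied more between libraries. Goblet-like cells, in which the hormone genes SST and GCG also led, had 255, 295 and 354 CPM in 62 to 82 cells per library. Enteroendocrine-like cells had 426, 408 and 679 CPM in 67, 89 and 34 cells, and placental-gene-expressing cells 1059, 1466 and 793 CPM in 24, 44 and 10 cells. In each of these clusters, goblet-like cells included, the LPS library lay outside the range of the controls but held the fewest cells. The LPS library also lay above both controls in cluster 1, in the stem-like and enterocyte-like cells and in the unnamed cluster 2 (410, 418 and 441 CPM). It lay between the controls in the undifferentiated HT29-like cells and in the unnamed cluster 6 (1294, 746 and 976 CPM). The remaining clusters are not given here. In such CPM over all kept cells, 48.5% of all genes tested lay above both controls in the LPS library.

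**Figure D2:**
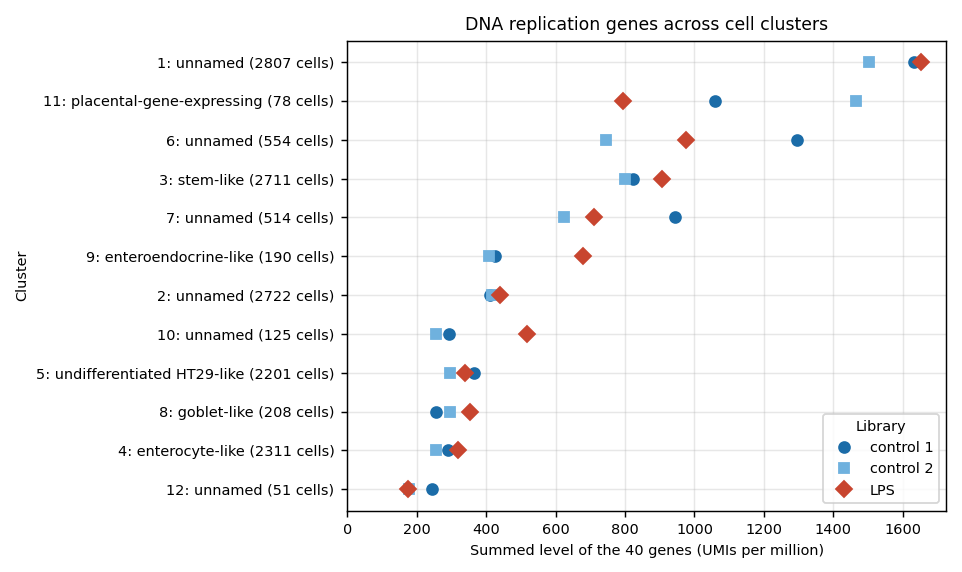
Summed level of the 40 genes, in CPM, in each of the 12 clusters, with 1 point per library and the number of cells over all libraries beside each name. Cluster 1, led by UBE2C and TOP2A, lay at 1504 to 1651 CPM, and the enterocyte-like cluster at 255 to 319.7 CPM.

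The first comparison asked whether a day of LPS changed the replication genes. None of the 40 members differed between the LPS library and the controls in edgeR's quasi-likelihood test over all kept cells, against 0.105% of all 16135 genes tested (17 genes). The fit had 1 residual degree of freedom and assumed that the LPS library varied like the controls, and as nothing ties the Transwells to separate cultures, p-values here and below measure the spread between these libraries only. At an unadjusted p under 0.05 there was 1 member, GINS3 (4.65% of all genes), and DESeq2 also called 0. The median log2 fold change over the members was 0.03, beside 0.01 over all genes.

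In TMM-scaled levels, which adjust CPM for differences in library composition, CDT1, which loads the helicase with CDC6 (ENSG00000167513, chr16:88803789-88809258), was at 39.98 and 39.7 CPM in the controls and 43.4 in the LPS library. PCNA, the clamp that holds the polymerase on DNA (ENSG00000132646, chr20:5114953-5126626), was at 46.5 and 40.98 CPM in the controls and 45.7 with LPS. The LPS value was thus above both controls for CDT1 and between them for PCNA. It lay above both controls in 14 members (36.0% of all genes) and below both in 10 (33.4% of all genes). In CPM without that scaling it lay above both in 24 members (48.5% of all genes), PCNA among them at 44.8, 40.9 and 47.4 CPM, and below both in 7 (23.5% of all genes).

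The fitted differences at either end were in sparse genes. GINS3 (ENSG00000181938, chr16:58295080-58406147) was at 1.83 and 1.60 CPM in the controls and 2.83 with LPS, a log2 fold change of 0.72 ± 0.34 (SE; adjusted p = 0.956 by edgeR's quasi-likelihood test with Benjamini-Hochberg adjustment, as for all adjusted p-values here). CDC45, the helicase cofactor (ENSG00000093009, chr22:19479457-19520612), was at 4.26, 2.91 and 2.64 CPM, or -0.45 ± 0.32 (adjusted p = 0.956). The CDC45 value with LPS was closer to that of control 2 than the controls were to each other. No gene of the other 5 cell cycle lists passed the threshold either: among 30 mitosis genes 7 had a positive and 23 a negative fold change, with a median of -0.09, where 48.7% of all genes had a negative one. Their summed level with LPS, 1726 CPM, lay between the controls, at 1631 and 1928 CPM.

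The second comparison set HT29-line against Caco-2-line cells, which shared each Transwell and library. In these data 37 of the 40 members were lower in HT29-line cells, where 38.1% of all 14019 genes tested were lower. The summed level was 371, 291 and 359 CPM in HT29-line cells and 911, 890.5 and 951 CPM in Caco-2-line cells, 2.46-, 3.06- and 2.65-fold lower. The groups did not overlap for 36 members (38.5% of all genes lay lower without overlap). With a fold of at least 2 also required, 28 members were lower, and 21.6% of all genes. The median over the members was -1.83 (log2), beside -0.06 over all genes.

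By role, the helicase activation genes had the lowest median, -2.61 (log2), and the polymerases, primase and RPA stood at -0.93. The following values are TMM-scaled. MCM10, which bridges the helicase and polymerase alpha (ENSG00000065328, chr10:13161558-13211110), was at 0.998, 0.732 and 1.16 CPM in HT29-line cells and 19.4, 18.2 and 19.8 CPM in Caco-2-line cells. Every HT29-line value was thus below every Caco-2-line value, with a log2 fold change of -4.31 ± 0.26 (SE; adjusted p = 4.25e-14), or 19.8-fold lower in HT29-line cells. GINS4 fell by 3.74 ± 0.47 on the log2 scale, at 0.499, 0.244 and 0.289 CPM in HT29-line cells against 3.83, 5.41 and 5.08 CPM. GINS2 fell by 2.75 ± 0.18. The HT29-line sums held 3283016 to 4047602 UMIs per library, so the MCM10 and GINS4 levels there rest on few UMIs. APOA4, an enterocyte gene, was 21.4-fold lower in HT29-line cells, close to the fold of MCM10. The part of Caco-2-line RNA carried into HT29-line droplets in these levels was not tested. Among 8 helicase activation genes, 7 were lower and CDC45 was the exception: 3.49, 1.95 and 2.02 CPM in HT29-line cells against 4.49, 3.19 and 2.84 CPM, a log2 fold change of -0.50 ± 0.30 (adjusted p = 0.134). Its groups overlapped, though it was lower within each library.

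All 10 licensing genes were lower. CDT1 was at 8.74, 3.90 and 9.24 CPM in HT29-line cells and 45.9, 48.2 and 51.6 CPM in Caco-2-line cells, a log2 fold change of -2.75 ± 0.17 (adjusted p = 2.94e-14). MCM6, a helicase subunit (ENSG00000076003, chr2:135839626-135876443), was at 5.74, 4.39 and 7.22 CPM against 37.99, 36.5 and 40.6 CPM. The lowest Caco-2-line value was thus far above the highest HT29-line value. MCM7, a subunit of the same ring, differed less, at 44.9, 33.9 and 32.4 CPM against 77.8, 71.5 and 71.4 CPM, or -0.99 ± 0.10. The test compared lines gene by gene and not the subunits with each other.

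Of the nucleotide genes, TYMS (ENSG00000176890, chr18:657653-673578) was at 15.97, 9.27 and 11.6 CPM in HT29-line cells and 96.3, 82.6 and 80.6 CPM in Caco-2-line cells. Its groups were far apart, with a log2 fold change of -2.83 ± 0.13 (adjusted p = 6.05e-17). RRM2, the small subunit of ribonucleotide reductase, fell by 2.08 ± 0.17, but RRM1, the large subunit, by 0.66 ± 0.12 and TK1, the thymidine salvage kinase, by 0.77 ± 0.13. Both RPA2, of the single-strand binding complex (-0.66 ± 0.13), and clamp loader subunit RFC2 (-0.63 ± 0.15) were also lower by less than 2-fold.

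A pair of members beside the fork did not pass the test. SLBP, which binds histone mRNA (ENSG00000163950, chr4:1692731-1712344), was at 45.9, 34.4 and 32.6 CPM in HT29-line cells and 38.99, 35.5 and 35.8 CPM in Caco-2-line cells, with a log2 fold change of 0.03 ± 0.11 (adjusted p = 0.81). UNG, a uracil-removing repair enzyme (ENSG00000076248, chr12:109097597-109126725), was at 11.98, 8.54 and 13.3 CPM against 17.0, 12.9 and 12.9 CPM (-0.36 ± 0.16, adjusted p = 0.0523). For both genes the groups overlapped and the direction differed between libraries. UNG was lower in HT29-line cells in both controls and higher in the LPS library. UNG passed without the LPS library (-0.54, adjusted p = 0.0164), with no filter on low counts (-0.42, adjusted p = 0.0208) and with a looser line assignment (-0.34, adjusted p = 0.0492). POLA1, called at -0.68, did not pass without control 1 (-0.31, adjusted p = 0.363) or by DESeq2 (-0.71, adjusted p = 0.158).

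The other lists moved with the members in this comparison. All 30 mitosis genes were lower in HT29-line cells, among them CDK1, the mitotic kinase, at 22.2, 26.8 and 24.3 CPM against 163, 198 and 187 CPM. Of 46 other replication genes 33 were lower and 3 higher (POLD4, DUT and POLE3), of 14 fork repair genes 13 were lower and USP1 higher, and of 11 replication-dependent histone genes 9 were lower and HIST1H2AC higher. Of 12 cell cycle arrest genes 8 were higher (34.9% of all genes were) and 3 lower. CDKN1A, an inhibitor of cyclin-dependent kinases, was at 171, 216 and 192 CPM in HT29-line cells and 31.8, 35.2 and 38.1 CPM in Caco-2-line cells (log2 fold change 2.46 ± 0.09, adjusted p = 7.74e-19), and CDKN2A at 94.3, 74.6 and 67.0 against 35.6, 34.7 and 29.4 CPM. All 18 enterocyte genes were lower in HT29-line cells, but such genes were not withheld from the lists that assigned the lines. The part of any of these in the members' difference was not tested.

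The third comparison asked how replication transcripts went with enterocyte genes within the Caco-2 line. Caco-2-line cells of each library were ranked by the share of their UMIs on 18 enterocyte genes and split into 3 equal tiers, a range along a score rather than types; 293 to 352 cells per library lay within 10% of the upper boundary. The summed level of the 40 genes was 1093, 1112 and 1207 CPM in the lower tier, 1061, 991 and 1057 CPM in the middle tier and 551, 540.02 and 578 CPM in the upper tier. The upper tier was thus 1.98- to 2.09-fold below the lower tier, whereas the middle tier was within 1.14-fold of it.

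Gene by gene, 38 of the 40 members were lower in the upper than in the lower tier, where 28.1% of all 12775 genes tested were lower. The groups did not overlap for those 38 (26.7% of all genes lay lower without overlap), 15 were lower by at least 2-fold (6.96% of all genes), and the median was -0.90 (log2) beside -0.01 over all genes. These counts and the levels of single genes below are TMM-scaled. Scaling by library totals instead, tried after seeing the data, moved the median of all genes by -0.28 (log2), and then all 40 members were lower, with a median of -1.19. Of the genes called, 49.1% were lower with TMM and 74.8% with library totals. Median depths were 5212.5, 3963 and 3509 UMIs per cell in the upper and 5621, 4177 and 3496 in the lower tier.

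**Figure D3:**
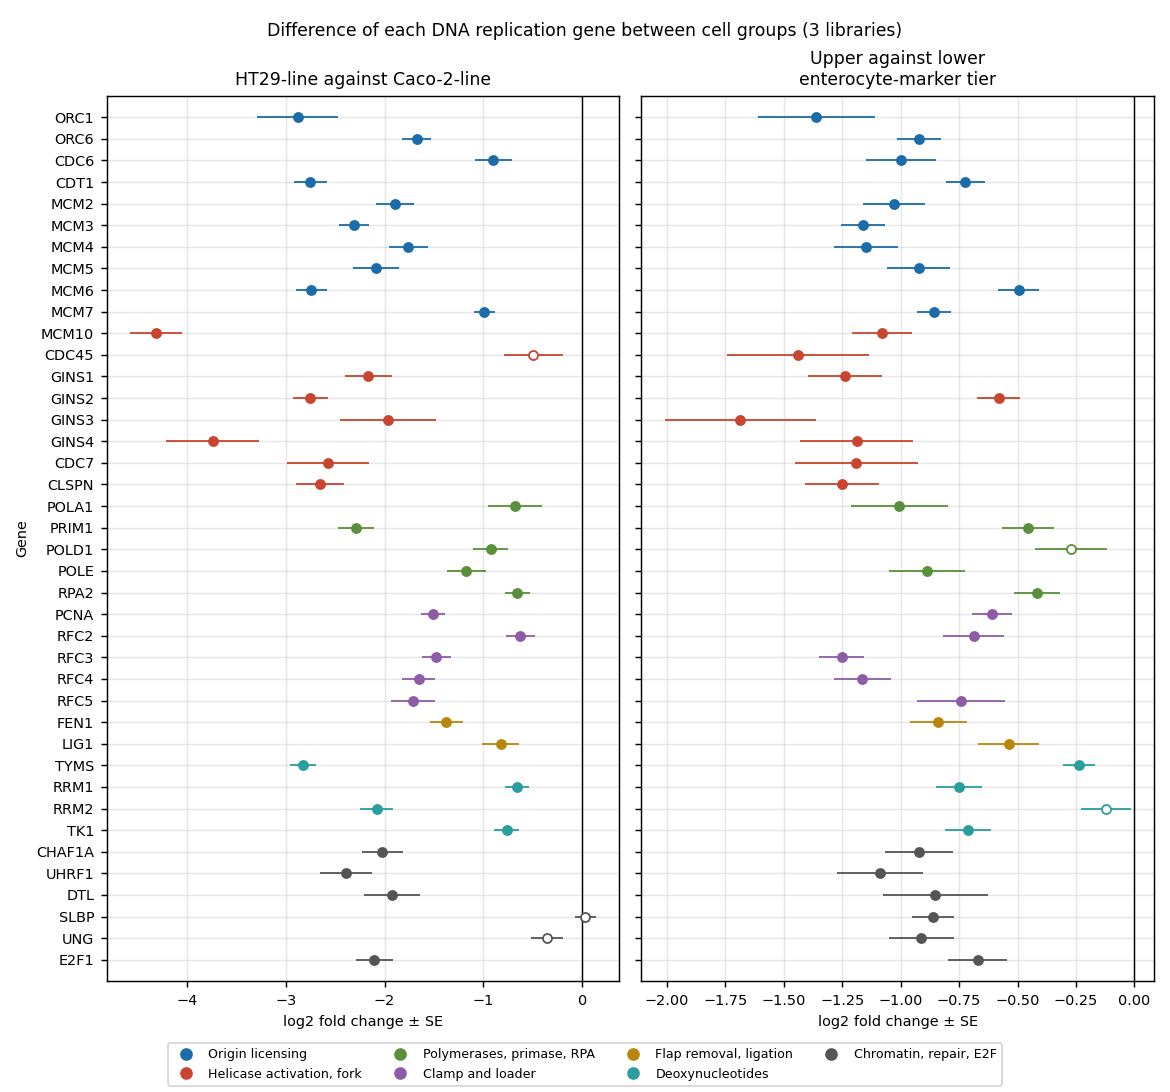
Log2 fold change ± SE of each gene for HT29-line against Caco-2-line cells (left) and for the upper against the lower enterocyte-marker tier of Caco-2-line cells (right), from sums per library over 3 libraries; filled points passed an adjusted p of 0.05. Open points are CDC45, SLBP and UNG on the left and POLD1 and RRM2 on the right; the axes differ in range.

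Helicase activation genes again lay lowest, with a median of -1.21 and 7 of 8 lower by at least 2-fold. CLSPN, which relays fork stress to the checkpoint, was at 7.98, 6.34 and 4.91 CPM in the upper and 15.5, 16.9 and 14.3 CPM in the lower tier, a log2 fold change of -1.25 ± 0.16 (adjusted p = 4.23e-07). CDC45, not called between the lines, was at 2.76, 0.705 and 1.37 CPM against 4.91, 4.70 and 4.07 CPM (-1.44 ± 0.30, adjusted p = 0.00033). In both genes the tiers did not overlap.

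Among licensing genes MCM3 was at 23.8, 18.2 and 22.0 CPM in the upper and 47.5, 46.5 and 50.02 CPM in the lower tier (-1.16 ± 0.09, adjusted p = 3.28e-10), and the 10 genes ranged from -1.36 (ORC1) to -0.49 (MCM6). RFC3 and RFC4 of the clamp loader fell by 1.25 ± 0.10 and 1.16 ± 0.12. SLBP, not called between the lines, fell by 0.86 ± 0.09 here, from 46.7, 42.6 and 42.4 CPM to 24.4, 24.3 and 23.9 CPM, and UNG fell by 0.91 ± 0.14. Neither SLBP nor UNG was tested for a difference between the comparisons.

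RRM2, TYMS and POLD1 stood nearest to 0, whereas the other nucleotide genes, RRM1 and TK1, fell by 0.75 ± 0.10 and 0.71 ± 0.10. RRM2 (ENSG00000171848, chr2:10120698-10211725) was at 26.7, 25.2 and 24.9 CPM in the upper and 23.9, 28.5 and 32.8 CPM in the lower tier, a log2 fold change of -0.12 ± 0.11 (adjusted p = 0.341). TYMS was at 76.6, 61.2 and 66.7 CPM against 84.2, 77.8 and 79.2 CPM, lower by 0.24 ± 0.07 (adjusted p = 0.00534). The tiers overlapped for RRM2, which on this scale was higher in the upper tier of control 1 and lower in the other two libraries. In CPM without TMM the ratio of its upper to its lower tier was below 1 in every library, at 0.890, 0.738 and 0.639. RRM2 passed the test with library totals (-0.41, adjusted p = 0.0029) and without control 1 (-0.28, adjusted p = 0.0488). TYMS did not pass with each cell thinned to that common depth (-0.15, adjusted p = 0.227), by DESeq2 (-0.23, adjusted p = 0.0977), without control 2 (-0.18, adjusted p = 0.0688) or without the library block (-0.24, adjusted p = 0.097). Over all alternative runs of the tiers, 13 calls on members were lost, those of TYMS among them, and 4 were gained. The other lost calls are not named here. POLD1, the catalytic subunit of polymerase delta (ENSG00000062822, chr19:50384204-50418018), was at 13.1, 10.0 and 10.0 CPM against 12.3, 11.8 and 17.1 CPM (-0.27 ± 0.15, adjusted p = 0.138), and passed with library totals (-0.56, adjusted p = 0.00391) and without control 1 (-0.50, adjusted p = 0.0137).

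The lists beside the members were mostly lower too: 29 of 30 mitosis genes, 14 of 14 fork repair genes, 33 of 45 other replication genes (3 were higher, POLD4, POLE4 and RNASEH2C) and 8 of 11 histone genes. HIST1H2AC was higher in the upper tier (0.51 ± 0.10, adjusted p = 0.00018). Of 11 arrest genes 3 were higher (29.2% of all genes were) and 3 lower; CDKN1A was at 55.1, 55.3 and 63.8 CPM in the upper and 14.7, 17.0 and 19.2 CPM in the lower tier (1.78 ± 0.09, adjusted p = 7.13e-14).

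Both the number of replication-rich cells and their content were then compared in thinned cells. Cells with 5 or more UMIs of the 40 genes made up 15.8%, 16.04% and 19.5% of the lower tier and 6.54%, 4.68% and 5.57% of the upper tier. Within these cells the mean was 7.19, 7.27 and 7.25 UMIs in the lower and 7.59, 7.46 and 7.49 in the upper tier. The shares of the upper and lower tiers did not overlap. In the middle tier the shares were 16.05%, 14.9% and 16.8%, which overlapped those of the lower tier. The mean in cells past the minimum cannot fall below that minimum, and it was higher in the upper than in the lower tier in all 3 libraries. It came from 86, 57 and 63 cells of the upper and 207, 187 and 215 of the lower tier. The SD over these cells was 2.37, 2.69 and 2.39 UMIs in the upper and 2.61, 2.35 and 2.32 in the lower tier. The differences in mean were small beside that spread and were not tested. Among the remaining cells, the mean was 1.22, 1.29 and 1.39 UMIs in the lower and 0.664, 0.783 and 0.827 in the upper tier.

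Between the lines, 12.8%, 11.8% and 13.9% of Caco-2-line cells held 5 or more UMIs. In HT29-line cells the shares were 1.55% (95% exact interval 0.747 to 2.84), 0.5995% (0.195 to 1.39) and 2.18% (1.20 to 3.64), from 10, 5 and 14 cells. The shares of the lines did not overlap over the libraries, and these intervals cover counting error only. No cell type that should lack these genes was present to set a background for these shares.

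**Figure D4:**
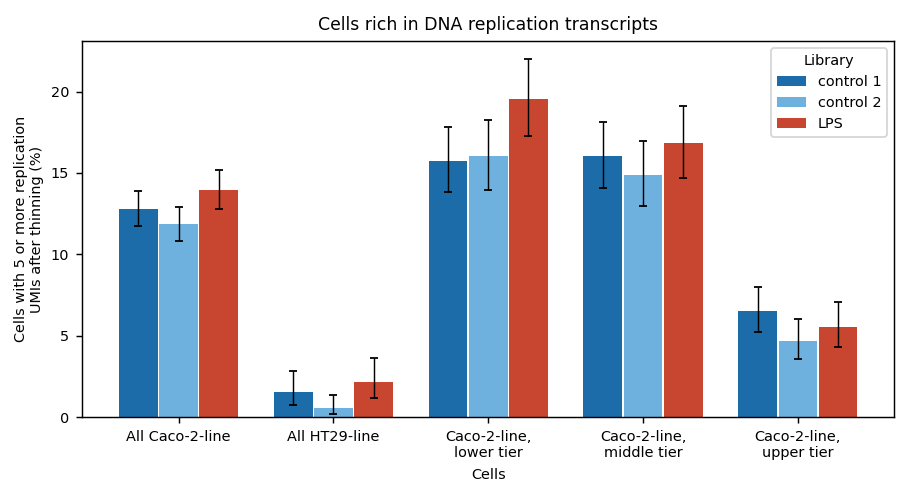
Share of thinned cells with 5 or more UMIs of the 40 genes, in % with 95% exact binomial intervals, by library, for both lines and for the enterocyte-marker tiers of the Caco-2 line. The upper tier lay at 4.68 to 6.54% and HT29-line cells at 0.5995 to 2.18% in the 3 libraries.

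To see how closely each member went with the others, the cells of each library were ranked by the UMIs of the other 39 members. The top and the bottom 20% were then compared for the remaining one. Ranks used thinned UMIs, with ties ordered by the share of these UMIs before thinning, so the choice of low cells was not free of depth. These values describe how the members move together and carry no test. Pooled over the libraries, the ratio of levels between the top and the bottom 20% had a median of 10.5 over the members, and 34 had a ratio of at least 5. In all genes of at least 10 CPM the median ratio was 1.06 to 1.09 and the 95th percentile 2.48 to 2.62, and 36 of the members exceeded that percentile in every library. The all-gene ratios took cells ranked by all the members and added a small constant to each level. The members had no minimum level and, within a library, a floor of 3 UMIs in low cells, so this comparison is approximate. The high cells were deeper, with a median of 6948, 5334 and 4603 UMIs before thinning against 4119.5, 3459.5 and 3255 in low cells, and held fewer HT29-line cells, at 3.35%, 3.53% and 3.79% against 16.8%, 29.2% and 24.4%. Their mean doublet score was 0.083 to 0.095 against 0.060 to 0.073, and the part of depth, line and doublets in these ratios was not tested.

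The genes nearest to an on or off pattern were DTL and MCM10. DTL, which marks CDT1 for destruction in S phase (ENSG00000143476, chr1:212035553-212107400), gave 326 UMIs in high and 1 UMI in low cells, a ratio of 200.4 (95% counting interval 35.7 to 7939). MCM10 gave 870 against 7 UMIs, a ratio of 76.6 (37.0 to 191). UHRF1, which keeps DNA methylation on new strands, gave 445 against 6 UMIs, or 45.5 (20.7 to 125). In these the counts of the low cells limit the ratio.

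The members least tied to the rest were RPA2, SLBP and POLD1. RPA2 was at 42.1, 36.8 and 41.6 CPM in high cells and 17.2, 17.4 and 24.2 CPM in low cells, a pooled ratio of 2.10 (1.79 to 2.46). SLBP had a ratio of 2.74 (2.39 to 3.16) and POLD1 one of 2.90 (2.27 to 3.75). In low cells, with none of the other members' UMIs left after thinning, SLBP was at 22.5, 23.9 and 23.9 CPM and POLD1 at 8.31, 8.14 and 5.46 CPM. TYMS, with a pooled ratio of 9.53, was at 19.7, 18.7 and 18.1 CPM there. The ratio thus does not order the members by their level in low cells. By role, the median ratio was lowest for the polymerases, primase and RPA, at 4.10, and highest for the genes that act beside the fork, at 21.0. It was 13.2 for licensing and 18.0 for helicase activation genes. The 19 members with an E2F-type motif had a median ratio of 10.6 (range 4.22 to 200.4) and the 17 without one 8.53 (2.74 to 76.6).

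Within the replication-high cells, the members differed in how they went with mitosis genes. Mean UMIs of 30 mitosis genes were 1.502, 2.01 and 1.74 in cells with 0 or 1 UMI of the 40 members and 6.01, 7.04 and 7.32 in cells with 4 or 5, and were 4.84, 6.46 and 5.32 in the 22 to 32 cells with 13 or more. When the high cells were divided evenly into those with more and those with fewer mitosis UMIs, 11 members were lower with more mitosis UMIs in every library, 13 were higher in every library and 16 lay on both sides. The share over all genes was not computed for this division, so these counts do not set the members apart from other genes. Of the 13, 8 had a pooled 95% counting interval above 1, and CDT1, CDC45, POLA1, PRIM1 and RFC4 did not. These intervals treat each UMI as independent and leave out the spread between cells and libraries, so they are too narrow to serve as a test. ORC6 had an interval of 1.003 to 1.27, although its ratios in the libraries were 1.56, 0.961 and 0.923.

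The lower set held all 6 subunits of the MCM ring. UNG was at a pooled ratio of 0.432 (95% counting interval 0.356 to 0.523), MCM5 (ENSG00000100297, chr22:35400134-35425431) at 0.536 (0.452 to 0.634) and E2F1 at 0.627 (0.544 to 0.722). DTL, MCM2, GINS2, MCM4, UHRF1, MCM6, MCM3 and MCM7 followed, with ratios of 0.629 to 0.883. Each of these 11 had an interval below 1.

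The higher set was led by RRM2, at 2.498 (2.20 to 2.85). GINS1, a GINS subunit, was at 1.61 (1.30 to 1.99), TK1 at 1.47 (1.30 to 1.67), TYMS at 1.45 (1.34 to 1.56), the ligase LIG1 at 1.42 (1.20 to 1.69) and RRM1 at 1.42 (1.26 to 1.59). All 4 nucleotide genes thus had intervals above 1. MCM10, FEN1, which trims flaps between Okazaki fragments, CDC6 and CHAF1A, of the histone chaperone CAF-1, had ratios of 0.977 to 1.03.

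**Figure D5:**
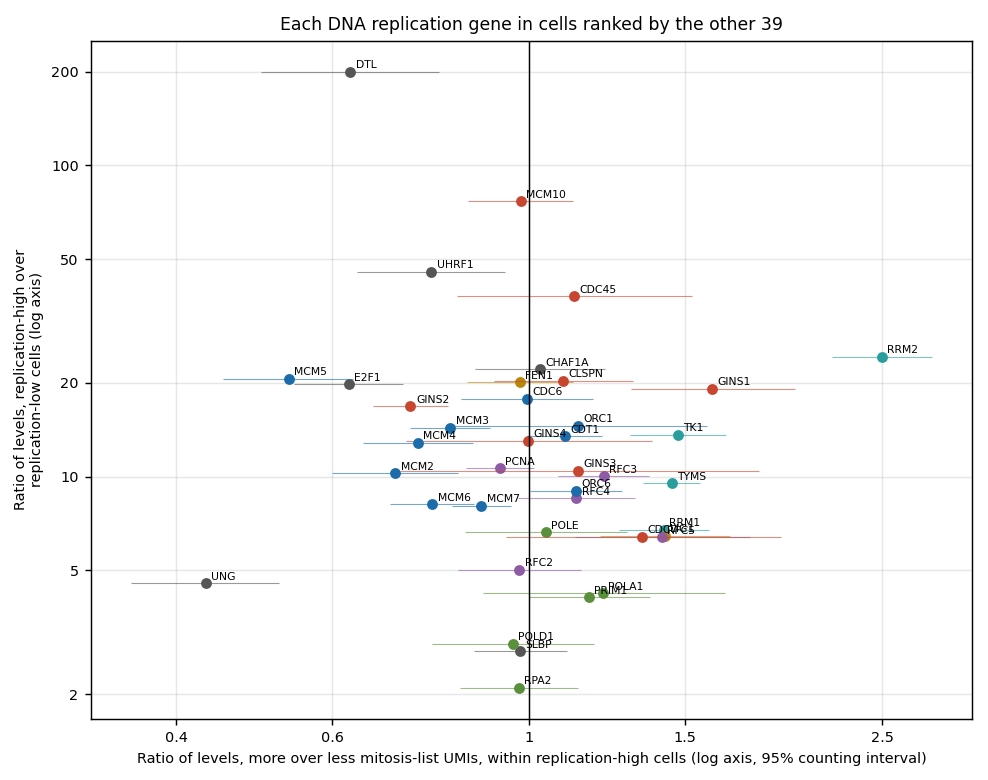
Ratio of levels between replication-high and replication-low cells (vertical, log axis) against the ratio, within replication-high cells, between those with more and those with fewer mitosis UMIs (horizontal, log axis, with 95% counting interval), pooled over 3 libraries and coloured by role. UNG and MCM5 lie leftmost, RRM2 rightmost, DTL, with 1 UMI in low cells, at the top and RPA2 at the bottom.

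The genes outside the members that separated replication-high from replication-low cells were tested on sums per library. Of 12105 genes tested, the members included, 27.6% were higher and 27.6% lower. Scaling by library totals moved the median of all genes by 0.11 (log2), and of the genes called 39.4% were then lower, against 49.9% with TMM. All 14 fork repair genes were higher, such as RAD51AP1, of homologous recombination, at 122, 131 and 124 CPM against 2.08, 3.32 and 3.79 CPM (log2 fold change 5.38 ± 0.15, adjusted p = 7.97e-20). All 30 mitosis genes were higher, with CDK1 at 287, 329 and 339 CPM against 7.28, 15.98 and 18.95 CPM. Of 46 other replication genes 43 were higher and 1, POLD4, an accessory subunit of polymerase delta, was lower (-1.19 ± 0.20, adjusted p = 2.38e-05).

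Of 11 histone genes 9 were higher, among them HIST1H4C at 1848, 1715 and 1548 CPM against 327, 324 and 349 CPM (2.35 ± 0.07), and HIST1H2AC was lower (-1.56 ± 0.13). Of 11 arrest genes 7 were lower, with CDKN1A at 24.7, 32.2 and 27.4 CPM against 74.1, 98.0 and 95.4 CPM (-1.66 ± 0.09, adjusted p = 5.18e-14), and 3 were higher, CDKN2D (0.55, adjusted p = 0.0148), CDKN1B (0.48, adjusted p = 0.000156) and CDKN2A (0.39, adjusted p = 0.00289). CDKN2D did not pass without control 1 (0.43, adjusted p = 0.128) or without the LPS library (0.46, adjusted p = 0.0667), and CDKN2A did not without control 1 (0.26, adjusted p = 0.0691). Neither passed by DESeq2, and CDKN1B did not in Caco-2-line cells alone (0.16, adjusted p = 0.178). Of 18 enterocyte genes 17 were lower, and APOA1 was higher by 0.17 ± 0.06, which turned to -0.33 in Caco-2-line cells alone and did not pass without control 2 (0.11, adjusted p = 0.12) or without the LPS library (0.17, adjusted p = 0.18). EXO1, an exonuclease of fork repair, was at 10.2, 5.28 and 8.14 CPM in high cells and had no UMI in low cells.

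Outside all lists, the highest of the genes at 20 CPM or more were SPC25, a kinetochore protein, at 63.6, 53.7 and 56.3 CPM against 0.520, 0.603 and 0.689 CPM (6.55 ± 0.23), and MYBL2, a transcription factor of dividing cells, at 111, 98.2 and 104 CPM against 2.86, 1.51 and 3.101 CPM. PBK, CENPK, ZWINT, CCNA2, MND1, PCLAF, KIFC1 and CENPW followed. The lowest included NUPR1, a stress-induced chromatin gene, at 3.53, 5.10 and 5.78 CPM against 23.4, 176 and 59.6 CPM, and the epithelial genes CEACAM7, FAM3D and TSPAN1. High and low cells did not overlap in SPC25, MYBL2 or NUPR1, although NUPR1 in low cells differed widely between libraries. NUPR1 and FAM3D were also among the leading genes of the undifferentiated HT29-like cluster, in which 96.7% of cells were of the HT29 line, and low cells held 16.8%, 29.2% and 24.4% HT29-line cells against 3.35% to 3.79% in high cells. The part of the line in these genes was not tested.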

How the data were processed

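Droplet single-cell RNA sequencing was deposited as 3 gene by barcode matrices of raw UMI counts, made by the authors on GRCh38 and not normalized. Per the file headers they came from Cell Ranger 3.1.0, while the study's methods list another version; the annotation release is not given in the sources used here. Coordinates are from GENCODE v44 and promoters from RefSeq.

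Cells were kept at 2250 UMIs and 770 genes (control 1) or 1500 UMIs and 700 genes (control 2; also used for LPS, for which no minimum was found), with at most 20% mitochondrial UMIs. A doublet caller marked 0, 0 and 1 cells, so the 6% of cells with the highest doublet scores were removed per library. Lines were assigned from the study's signature lists by a 2-component mixture (posterior of at least 0.95). Clusters used 2000 variable genes, 30 principal components, 15 neighbours and Leiden resolution 0.5, with the naming rule set after the clusters were seen. Members and lists were chosen with earlier results of these data known.

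UMI counts were summed per library and cell group and tested with edgeR 4.0.16 (R 4.3.3; TMM, low-count filter, quasi-likelihood test, Benjamini-Hochberg threshold 0.05). Library was a block in the comparisons within libraries, since both groups came from the same Transwell. Replication-high and replication-low cells were the top and bottom 20% by member UMIs after thinning to 2250 UMIs, so members were not tested there. Ties were ordered by the share of member UMIs before thinning. All low cells held 0 member UMIs after thinning, so that order chose them, and the choice was not free of depth. Named genes were the members, up to 4 genes per list and direction, and 10 higher and 5 lower other genes of at least 20 CPM, of which 1 is not reported here. Alternatives included DESeq2 1.42.0 and, added after seeing the data, library totals in place of TMM. scanpy 1.11.5, scikit-learn 1.9.0, leidenalg 0.10.2 and scipy 1.17.1 were used.

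The fits were tested on simulated data with 200 changed genes. All genes were given the same assumed dispersion, not estimated from these data, and libraries differed in depth but not in gene proportions. Only genes above a minimum expected count were changed, so recovery in the real data may differ. At a log2 change of 1, 44% of changed genes were recovered for LPS (16090 genes) and 82% for the lines (13840 genes), 84% for replication-high cells (12080 genes) and 82% for the tiers (12750 genes); at 2, 91%, 100%, 100% and 99%.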

Additional observations from a re-analysis of the deposited data

Results flagged for a closer look

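POLD1, the catalytic subunit of polymerase delta, lay on opposite sides of the controls in the lines with LPS. In Caco-2-line cells it was at 13.2 and 11.5 CPM in the controls and 14.4 CPM with LPS, 1.17 times the control mean. In HT29-line cells it was at 7.96 and 7.16 CPM in the controls and 6.09 CPM with LPS, 0.806 times the control mean, from 20 UMIs against 32 and 29. The LPS library thus lay above both controls in one line and below both in the other, with 1 LPS library. In TMM-scaled levels, POLD1 in Caco-2-line cells was at 14.2 CPM with LPS, close to control 1 at 14.1 CPM. On that scale RPA2 and RFC3 also lay on opposite sides of the controls in the lines, so the pattern was not particular to POLD1. Its share over all genes is not given here. The difference between the lines was not tested, and over all kept cells POLD1 did not pass the test between LPS and control (adjusted p = 0.983 by edgeR's quasi-likelihood test).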

How the results depend on the processing

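No member was called between LPS and control under any alternative run. The counts over all genes (11 higher, 6 lower) became 6 and 13 in Caco-2-line cells alone, 3 and 3 by DESeq2, and 17 and 29 with no filter on low counts; 17 were higher in HT29-line cells alone, and 10 were lower with RLE size factors and 3 with doublet-score cells kept. The median over members was 0.10 without control 1 and -0.04 without control 2. Required folds of at least 2, added after seeing the data, left 2555 genes higher and 3035 lower between the lines, 1074 and 984 between replication-high and replication-low cells, and 992 and 889 between the tiers, with 15 members. DESeq2 called 1974 higher and 2034 lower for replication-high cells, and 1964 lower between the tiers. Library totals in place of TMM, also added after seeing the data, left 2062 genes higher and 6129 lower between the tiers, with a median over members of -1.19. With the Caco-2 line in 2 equal groups in place of 3 tiers, the median over members was -0.59. In thinned cells the summed level was 732, 700.5 and 798 CPM, and at 1500 UMIs the cells with 5 or more member UMIs were 5.70%, 4.29% and 6.02%. Between the lines, SLBP turned to -0.036 with no filter and ran from -0.089 (without control 1) to 0.11 (without the LPS library). APOA1 turned to -0.33 in Caco-2-line cells alone. Between the tiers, RRM2 ran from -0.28 (without control 1) to 0.0032 (without the LPS library). The cause was not tested. Leaving out 1 library gave 36 to 38 members lower between the lines and 36 to 40 between the tiers.

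Without the replicate block, 37 members were lower between the lines, with a median of -1.83. The replicate block changed no call on a member except TYMS between the tiers; among other named genes, APOA1 did not pass without it for replication-high cells (0.16, adjusted p = 0.541). No paired analysis was possible for LPS because its library shares a number with 1 control only. With 1 LPS library and 44% of simulated 2-fold changes recovered, LPS effects of 2-fold and smaller could have been missed. Low counts of sparse genes widen their ratios.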
